A study of Mus musculus with 12 samples.

Results

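The mitosis and G2/M genes are the genes that a cell switches on as it completes DNA replication, enters mitosis and divides. The set was given as a list of 39 gene symbols, drawn up with earlier results of these data known, and all 39 were found among the 50674 genes of the deposited table. All 39 also passed the filter on low counts that left 17457 genes for testing. The cells were natural killer (NK) cells, cytotoxic lymphocytes, expanded with IL-2 from the spleens of C57BL/6 mice, and polyadenylated RNA was sequenced. The groups were Mirc11-/- cells given 6 h of stimulation of NKG2D, an activating receptor, Mirc11-/- cells left unstimulated, wild-type cells given the same 6 h of stimulation, and unstimulated wild-type cells. Each group had 3 libraries, described in the series design as biological replicates. Every group shared the strain and the IL-2 expansion, a culture in which NK cells divide, so each comparison is within expanded cells. How the NKG2D ligand was presented and whether replicates came from separate mice is not given in the sources used here.

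Mirc11 is the microRNA cluster of miR-23a, miR-27a and miR-24-2 on chromosome 8. In a library of polyadenylated RNA its precursors are hardly seen. Mir27a had 0 counts in each of the 6 Mirc11-/- libraries, against 0 to 4 counts per library in the 6 wild-type libraries. Mir23a had 0 counts in every library and Mir24-2 had 1 count in all, in a wild-type library, so the deletion was visible only in the few Mir27a counts. The mature microRNAs encoded in the deleted cluster are shown first because the genotype comparisons turn on that cluster. How much of each mature microRNA remained in Mirc11-/- cells was not measured. The sequences are from RefSeq (GRCm38.p6), 5′ to 3′, with the seed, bases 2 to 8, in capitals.
miR-23a-3p: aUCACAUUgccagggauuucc
miR-27a-3p: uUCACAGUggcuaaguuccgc
miR-24-3p: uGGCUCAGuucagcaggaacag

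Progress through mitosis is driven by Cdk1 bound to cyclins, by kinases of the Aurora and Polo families, and by the anaphase-promoting complex, which ends mitosis by marking cyclin B and securin for destruction. Most genes of this programme are transcribed late in the cell cycle. In dividing mammalian cells the DREAM complex, B-Myb and FoxM1 act on them through a promoter element called the cell cycle genes homology region (CHR), often beside CCAAT boxes bound by NF-Y. In bulk RNA a lower level of such genes can come from fewer cells in G2 and mitosis or from less RNA per cell, and these cannot be told apart here.

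Promoters were examined for the 33 members matched in the RefSeq promoter table (GRCm38.p6), in windows of 300 bases around the start site. The CHR was searched as TTTGAA or TTCGAA and the CCAAT box as CCAAT, each on both strands. Matches can share letters: in Cdca8 a CHR and a CCAAT match share 1 base, and in Ube2c a pair of CCAAT matches on opposite strands share 2 bases. A CHR match was present in 27 of the 33 members, or 81.8%, while 21.7% of 27025 genes held one. A CCAAT match was present in 26, or 78.8%, compared with 41.1% of all genes. Both were present in 24 members, or 72.7%, compared with 8.61% of all genes. At least 2 CCAAT matches were present in 19 members, or 57.6%, compared with 13.3% of all genes. Birc5, Mad2l1, Nuf2 and Nusap1 held neither motif in this window. A match describes letters in a window and not a bound site.

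Windows of 4 members are given below, each from 220 bases before to 30 bases after the RefSeq start and read along the gene, with matches in capitals (ATTGG is CCAAT on the other strand). Cdk1 is shown as a member that fell in Mirc11-/- cells, Espl1 as the member with the lowest log2 change in wild-type cells, Cenpa as the member that rose, and Nusap1 as a member without either motif. The Cdk1 window lies at chr10:69352883-69353132 on the minus strand, the Espl1 window at chr15:102296073-102296322, the Cenpa window at chr5:30666666-30666915 and the Nusap1 window at chr2:119618078-119618327, all 3 on the plus strand.
Cdk1: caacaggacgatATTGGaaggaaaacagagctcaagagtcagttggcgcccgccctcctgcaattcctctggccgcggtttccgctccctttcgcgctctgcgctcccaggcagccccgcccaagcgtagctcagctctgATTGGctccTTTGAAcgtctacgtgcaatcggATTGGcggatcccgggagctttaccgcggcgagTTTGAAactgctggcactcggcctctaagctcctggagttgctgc
Espl1: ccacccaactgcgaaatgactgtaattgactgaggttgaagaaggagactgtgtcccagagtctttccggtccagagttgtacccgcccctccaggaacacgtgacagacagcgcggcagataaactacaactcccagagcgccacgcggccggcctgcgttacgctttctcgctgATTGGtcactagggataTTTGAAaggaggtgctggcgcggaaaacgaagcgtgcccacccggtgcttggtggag
Cenpa: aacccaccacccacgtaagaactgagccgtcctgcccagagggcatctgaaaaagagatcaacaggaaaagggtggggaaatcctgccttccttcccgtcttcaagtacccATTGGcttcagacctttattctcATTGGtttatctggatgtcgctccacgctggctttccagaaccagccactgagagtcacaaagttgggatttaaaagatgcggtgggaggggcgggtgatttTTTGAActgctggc
Nusap1: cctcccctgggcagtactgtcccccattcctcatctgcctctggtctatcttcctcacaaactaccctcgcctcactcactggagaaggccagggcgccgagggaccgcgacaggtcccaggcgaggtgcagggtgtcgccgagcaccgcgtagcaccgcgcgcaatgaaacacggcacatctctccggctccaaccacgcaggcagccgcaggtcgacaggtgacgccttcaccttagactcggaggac

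In Cdk1 the CHR matches began 71 and 15 bases before the start, and CCAAT matches began 208, 80 and 48 bases before it. In Espl1 the CHR match began 27 bases and the CCAAT match 44 bases before the start. Cenpa, the member that rose, carried the same letters: CCAAT matches 109 and 86 bases before the start and a CHR match at base 17 of the transcribed side. All distances are from the RefSeq start. GENCODE, used for gene coordinates below, can place the start elsewhere, for Cenpa at 30666777, which is further upstream within the window.

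Library totals were 16275766 to 18181126 counts in stimulated and 15139281 to 18528612 counts in unstimulated Mirc11-/- cells, and 20009512 to 22146334 counts in stimulated and 18892771 to 25342991 counts in unstimulated wild-type cells. Levels are given as CPM, counts relative to library sizes scaled by the trimmed mean of M-values (TMM). The 10 NK markers summed to 4830 to 7450 CPM in stimulated and 12400 to 13400 CPM in unstimulated Mirc11-/- libraries, and to 8360 to 9750 CPM in stimulated and 11500 to 13800 CPM in unstimulated wild-type libraries. Gzmb at 2250 to 7840, Prf1 at 770 to 3890 and Il2rb at 1250 to 1800 CPM made up most of that sum. None of the 10 was at 0. On stimulation 6 of the 10 were called lower and 1 higher in Mirc11-/- cells, and 6 lower and 3 higher in wild-type cells. Between stimulated genotypes 3 were called lower in Mirc11-/- cells and 0 higher. The 8 T cell markers summed to 246 to 285 and 277 to 334 CPM in the stimulated and unstimulated Mirc11-/- libraries, and to 281 to 302 and 250 to 325 CPM in the wild-type ones. Most of that sum was Trbc1, which NK cells can also express. Cd3d was at 10.8 to 34.3, Cd3g at 11.3 to 35.5, Cd3e at 6.30 to 23.0 and Trac at 5.13 to 15.2 CPM, and Cd4 reached no more than 1.48 CPM. On stimulation 1 of the 8, Cd4, was called higher in each genotype and none lower. The 6 B cell markers summed to 102 to 113 and 64.2 to 73.2 CPM in Mirc11-/- cells and to 105 to 128 and 57.1 to 71.9 CPM in wild-type cells, mostly Ighm at 54.0 to 126 CPM. Ms4a1 was at 1.49 to 5.85 CPM, and Cd79a and Cd79b stayed under 1 CPM in every library. Of the 3 B cell markers tested, 3 were called higher on stimulation in Mirc11-/- cells and 2 in wild-type cells. The 7 myeloid markers summed to at most 19.2 CPM, with Cd14 at 1.89 to 9.27 and Cd68 at 2.96 to 9.22 CPM, and Adgre1, Lyz2 and C1qa stayed under 1 CPM. Of the 3 tested, 2 were called higher on stimulation in Mirc11-/- cells and 1 in wild-type cells. The 6 dendritic markers, mostly Itgax, which NK cells also express, summed to 159 to 194 and 190 to 207 CPM in Mirc11-/- cells and to 87.3 to 131 and 76.5 to 130 CPM in wild-type cells, and 2 and 1 of the 4 tested were called higher on stimulation. Neutrophil and mast cell markers summed to at most 8.62 CPM and erythroid and platelet markers to at most 2.78 CPM.

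Measures of background and of RNA make-up moved with stimulation. Reads on 548 vomeronasal receptor genes, which NK cells are not known to use, summed to 90.6, 48.6 and 57.9 CPM in stimulated and 14.2, 17.8 and 16.0 CPM in unstimulated Mirc11-/- replicates 1 to 3. The sums were 40.3, 24.6 and 24.4 CPM in stimulated and 14.3, 13.1 and 18.4 CPM in unstimulated wild-type replicates. The stimulated libraries were higher in both genotypes without overlap. Mitochondrial mt-Rnr2 took 13.8 to 14.4% of counts in stimulated and 10.4 to 12.1% in unstimulated Mirc11-/- libraries, and 12.6 to 13.6% and 9.16 to 9.84% in the wild-type ones. Stimulated Mirc11-/- replicate 1 stood apart from its group, with a chi-square per gene of 50.8 and 42.8 against replicates 2 and 3, which differed from each other by 5.15. The counts of members called are given with and without that library. In stimulated wild-type cells replicate 1 differed by 30.3 and 36.8 from replicates 2 and 3, which differed from each other by 14.8. The part of these measures in the results below was not tested. A fit with the vomeronasal level as a covariate was run, but that level separates stimulated from unstimulated libraries. The covariate therefore takes up part of the stimulation comparison itself, and calls lost in that fit do not show which part is background.

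In the main fit, which pairs no libraries, a minority of the mitosis and G2/M genes fell after NKG2D stimulation. Cenpa rose in both genotypes, and most members passed no test. In Mirc11-/- cells 12 of the 39 members fell and 1 rose at an adjusted p of 0.05 in edgeR's quasi-likelihood test, with Benjamini-Hochberg adjustment over all 17457 genes. Of all tested genes 22.1% were called lower and 23.5% higher in that comparison, against 30.8% and 2.56% of the members. In wild-type cells 6 members fell and 1 rose, and the share that fell, 15.4%, was close to the 15.7% of all genes called lower (16.1% were called higher). The estimate was negative for 36 members in Mirc11-/- cells and 37 in wild-type cells. Of all genes 47.9% had a negative estimate in each.

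The median log2 fold change of the 39 members was -0.36 in Mirc11-/- cells and -0.42 in wild-type cells, against medians of 0.03 and 0.02 over all tested genes. On the level scale the median member averaged 23.5 CPM in stimulated and 33.8 CPM in unstimulated Mirc11-/- cells, and 22.0 CPM in stimulated and 27.8 CPM in unstimulated wild-type cells. The median standard error was 0.20 log2 per member, and 24 members were called in neither genotype. Aurkb, Mad2l1, Espl1 and Tpx2 fell in both, which is 33.3% of the Mirc11-/- list and 66.7% of the wild-type list.

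**Figure D1:**
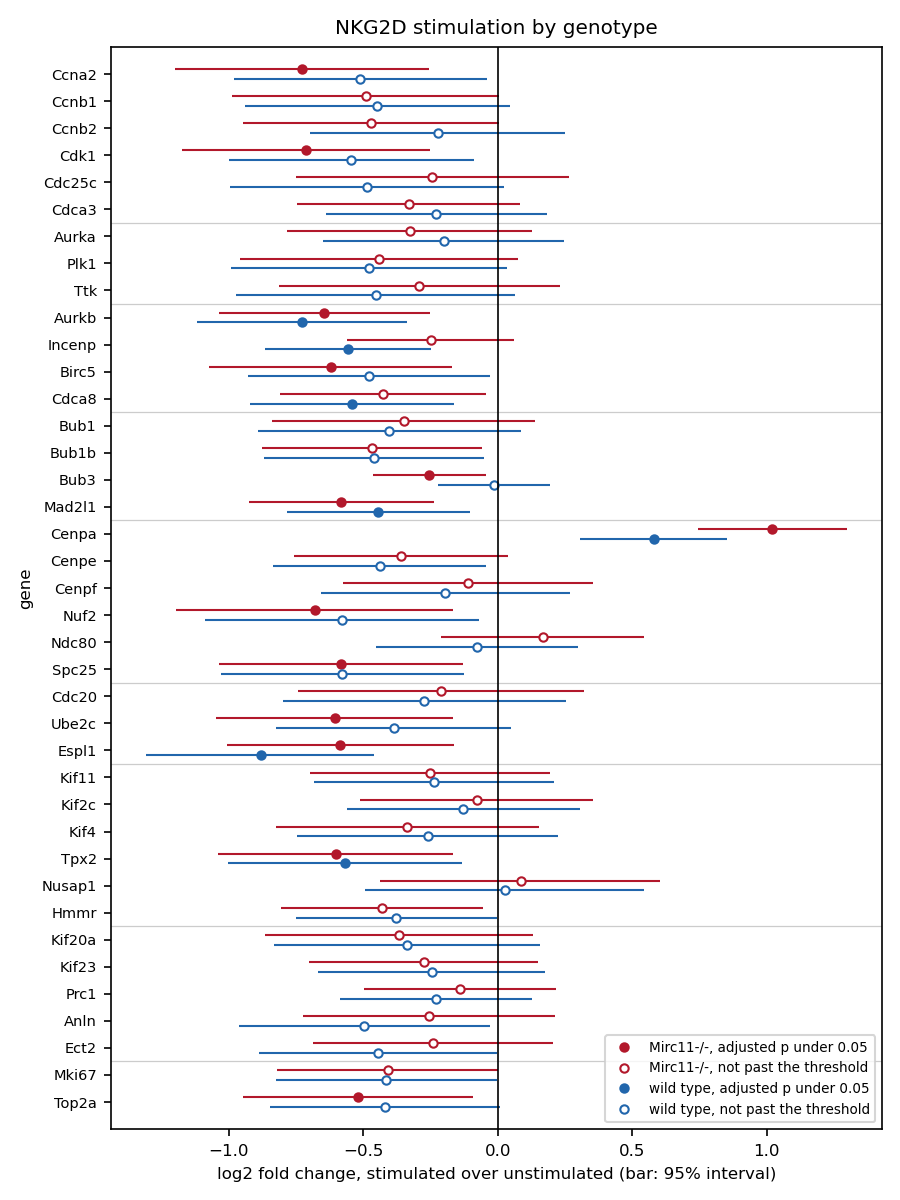
Log2 fold change of each of the 39 members on NKG2D stimulation (x axis), with 95% intervals, in Mirc11-/- cells (red, upper of each pair) and wild-type cells (blue, lower). Filled points passed the adjusted p of 0.05; most points lie left of 0 in both genotypes, and Cenpa lies to the right at 1.02 and 0.58.

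Separation of the individual libraries gave another order of the genotypes. In Mirc11-/- cells all 3 stimulated libraries lay below all 3 unstimulated ones for 6 members, or 15.4%, while this held for 26.2% of all genes. In wild-type cells it held for 22 members, or 56.4%, against 24.1% of all genes. In the main fit more members were called in Mirc11-/- cells, and more were separated library by library in wild-type cells. Over 24 alternatives the members called lower ran from 0 to 27 in Mirc11-/- cells and from 1 to 29 in wild-type cells. The highest counts came from a replicate block within genotype, where 4165 and 3010 genes were called lower in the whole table. That block takes the replicate numbers as pairs, which the design does not state. Without stimulated Mirc11-/- replicate 1, members called in either direction numbered 5 in Mirc11-/- cells and 14 in wild-type cells, against 13 and 7 with it, while genes called lower in the whole table numbered 3761 and 3498, against 3852 and 2745. That library was the lowest of its group for 38 members, so its removal raises their stimulated mean. With the vomeronasal level as a covariate 0 and 1 members fell, with medians of -0.28 and -0.34, and genes called lower in the whole table dropped to 581 in Mirc11-/- cells and 2325 in wild-type cells. Aurkb, Mad2l1 and Cenpa were called in Mirc11-/- cells with each of the 12 libraries left out in turn, and Aurkb, Incenp, Espl1 and Cenpa in wild-type cells. The other calls were lost without at least 1 library, and Top2a in Mirc11-/- cells held in only 3 of the 12 fits, with an adjusted p of up to 0.196.

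The members varied together between replicates of a group. Stimulated Mirc11-/- replicate 1 had the lowest level in its group for 38 of the 39 members, and unstimulated Mirc11-/- replicate 1 for 39. The same held for stimulated wild-type replicate 2 and unstimulated wild-type replicate 2, each lowest for 38 members. The summed level of the members was 1410, 2102 and 1840 CPM in stimulated and 1773, 2641 and 2245 CPM in unstimulated Mirc11-/- replicates 1 to 3. The sums were 1726, 1302 and 1729 CPM in stimulated and 2042, 1687 and 2206 CPM in unstimulated wild-type replicates. The groups of each genotype overlapped in this sum, because the lowest unstimulated library lay below the highest stimulated one. Each stimulated library was still below the unstimulated one of the same number, and the numbers ranked alike in both groups of a genotype. Since the members move as one across libraries, their counts and signs are not 39 separate observations.

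**Figure D2:**
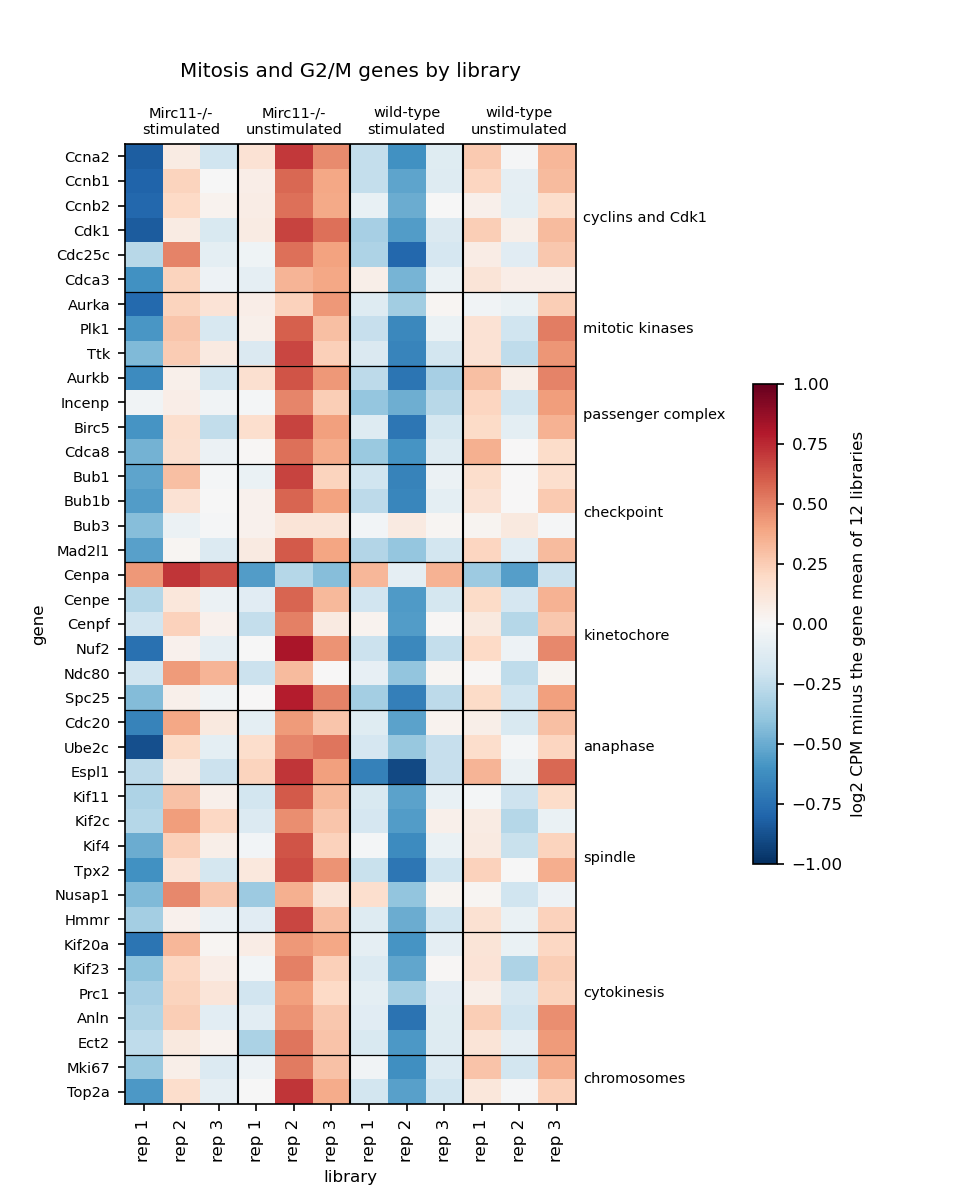
Log2 CPM of each member (rows, grouped by role) in each of the 12 libraries (columns) minus the member's mean over the 12 libraries, with red above and blue below that mean. Stimulated Mirc11-/- replicate 1 and stimulated wild-type replicate 2 are blue for nearly every row, unstimulated Mirc11-/- replicate 2 is red, and Cenpa runs the other way.

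Across the 12 libraries a member's log2 level was compared with the median of the other members, as a description in which the points share library, depth and group. Pearson's r was 0.985 for Bub1b, the checkpoint kinase-like protein BubR1, and 0.983 for Top2a. It was 0.839 or higher for 35 members. The other 4 were Nusap1 at 0.689, Ndc80 at 0.671, Bub3 at 0.485 and Cenpa at -0.298. Per kilobase of exon Mki67 was the highest member in each group, at 39.3 and 52.2 CPM per kb in stimulated and unstimulated Mirc11-/- cells and 36.6 and 48.8 CPM per kb in stimulated and unstimulated wild-type cells, and Cdc25c was the lowest. Cenpa lay at 27.2 and 13.4 CPM per kb in Mirc11-/- cells and at 20.8 and 13.9 CPM per kb in wild-type cells. Ccnb2, at 16.2 and 22.4 and at 15.6 and 18.2 CPM per kb, was below Cenpa in stimulated cells and above it in unstimulated cells.

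Among cyclins, Cdk1 and their activators, 2 of 6 members fell in Mirc11-/- cells and 0 in wild-type cells. Cdk1, the kinase that drives entry into mitosis, had 17.8, 33.5 and 28.5 CPM in stimulated and 33.6, 50.7 and 46.5 CPM in unstimulated Mirc11-/- replicates. In wild-type cells it had 25.2, 21.6 and 28.8 CPM when stimulated and 37.5, 33.0 and 39.5 CPM when unstimulated. The stimulated libraries were lower in both genotypes without overlap, though in Mirc11-/- cells the gap between the nearest libraries was small. The log2 change was -0.71 ± 0.21 (SE; adjusted p = 0.016) in Mirc11-/- cells and -0.54 ± 0.21 (adjusted p = 0.067) in wild-type cells. Cyclin A2, encoded by Ccna2 and active from S phase into mitosis, had 29.9, 56.2 and 46.1 CPM in stimulated and 58.6, 86.7 and 73.7 CPM in unstimulated Mirc11-/- replicates. Its log2 change there was -0.73 ± 0.22 (adjusted p = 0.0167), and in wild-type cells it was -0.51 ± 0.21 (adjusted p = 0.0919). The gene overlaps Exosc9 on the opposite strand over 863 bases, and the strand setting of the counting was not given in the sources used here. In all, 17 members overlap a gene on the other strand. The other gene averaged 57.6 CPM for Cdc20 (Elovl1), 8.34 CPM for Cdca8 (9930104L06Rik) and 0.016 CPM for Ube2c (Tnnc2).

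The mitotic cyclins Ccnb1 and Ccnb2, the partners of Cdk1, did not pass, with log2 changes of -0.49 and -0.47 in Mirc11-/- cells and -0.45 and -0.22 in wild-type cells. Cdc25c, a phosphatase that activates Cdk1, had -0.24 and -0.49, at a level of 2.45 to 6.18 CPM. Cdca3, a trigger of mitotic entry that targets Wee1 for degradation, had -0.33 and -0.23. For Ccnb1, 27.7% of the 31-base words of its transcripts also occur in transcripts of other genes, so its counts could be shared with copies. The corresponding share was 25.5% for Cdc20 and 14.8% for Plk1, and no member exceeded 50%.

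None of the kinases Aurka, Plk1 and Ttk passed in either genotype. Aurora A, encoded by Aurka, acts at centrosomes, Plk1 at centrosomes and kinetochores, and Ttk, also called Mps1, starts the spindle checkpoint. Their log2 changes were -0.33, -0.44 and -0.29 in Mirc11-/- cells and -0.20, -0.48 and -0.45 in wild-type cells.

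The chromosomal passenger complex, which corrects faulty attachments of chromosomes to the spindle, was represented by its 4 subunits. Aurkb, its kinase, had 11.5, 18.5 and 15.7 CPM in stimulated and 19.9, 27.6 and 24.1 CPM in unstimulated Mirc11-/- replicates. In wild-type cells it had 14.9, 10.8 and 14.2 CPM when stimulated and 22.0, 18.6 and 25.2 CPM when unstimulated. Every stimulated library lay below every unstimulated one in both genotypes. The log2 change was -0.64 ± 0.18 (SE; adjusted p = 0.0113) in Mirc11-/- cells and -0.73 ± 0.18 (adjusted p = 0.00818) in wild-type cells.

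Survivin, encoded by Birc5, fell in Mirc11-/- cells by 0.62 on the log2 scale (adjusted p = 0.028), and its log2 change was -0.48 (adjusted p = 0.0986) in wild-type cells. Incenp, the scaffold, fell in wild-type cells by 0.56 on the log2 scale (adjusted p = 0.00957), and its log2 change was -0.25 (adjusted p = 0.172) in Mirc11-/- cells. Its levels were 33.5, 35.8 and 33.4 CPM in stimulated and 33.7, 48.0 and 40.5 CPM in unstimulated Mirc11-/- replicates, which overlap. Borealin, encoded by Cdca8, fell in wild-type cells by 0.54 on the log2 scale (adjusted p = 0.0315), with -0.43 (adjusted p = 0.0655) in Mirc11-/- cells. A call in one genotype only is not a difference between genotypes, and no member passed the test of that difference.

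The spindle checkpoint holds anaphase until every chromosome is attached. Mad2l1, its Mad2 subunit, fell in both genotypes, with log2 changes of -0.58 ± 0.16 (SE; adjusted p = 0.00912) in Mirc11-/- cells and -0.44 ± 0.16 (adjusted p = 0.0456) in wild-type cells. It had 17.2, 25.4 and 22.7 CPM in stimulated and 26.5, 38.3 and 32.9 CPM in unstimulated Mirc11-/- replicates, with no overlap. In wild-type cells it had 20.4, 19.1 and 22.0 CPM when stimulated and 29.0, 23.2 and 31.2 CPM when unstimulated. The kinase Bub1 and its relative Bub1b did not pass, at -0.35 and -0.47 in Mirc11-/- cells and -0.40 and -0.46 in wild-type cells.

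Bub3, the partner of both, had the smallest standard error of the 39 members. It had 59.2, 76.6 and 79.1 CPM in stimulated and 82.2, 87.3 and 86.9 CPM in unstimulated Mirc11-/- replicates, and 78.0, 84.6 and 80.7 CPM in stimulated and 81.3, 85.2 and 79.1 CPM in unstimulated wild-type replicates. Replicate 1 was the low library of the stimulated Mirc11-/- group. Its log2 change of -0.25 ± 0.098 (SE) passed in Mirc11-/- cells (adjusted p = 0.0474), but with the vomeronasal covariate it was 0.24 (adjusted p = 0.501). In wild-type cells it was -0.01 ± 0.098 (adjusted p = 0.937).

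The kinetochore is the protein structure on the centromere that binds the spindle. Cenpa, the histone H3 variant that marks the centromere (chromosome 5, 30666777 to 30674830, plus strand), was the only member to rise. It had 142, 172 and 164 CPM in stimulated and 71.2, 86.0 and 78.3 CPM in unstimulated Mirc11-/- replicates. In wild-type cells it had 132, 98.7 and 134 CPM when stimulated and 81.6, 71.8 and 90.5 CPM when unstimulated. All stimulated libraries lay above all unstimulated ones in both genotypes. The rise was 2.03-fold in Mirc11-/- cells (log2 1.02 ± 0.13 SE; adjusted p = 3.69e-05) and 1.49-fold in wild-type cells (log2 0.58 ± 0.13; adjusted p = 0.00364). It was called under 23 of 24 alternative settings in each genotype. The exception was the vomeronasal covariate, with log2 changes of 0.86 (adjusted p = 0.132) and 0.50 (adjusted p = 0.0736).

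Of the factors that load Cenpa onto centromeres, Hjurp and Oip5 did not pass the test: the chaperone Hjurp had log2 changes of 0.12 and 0.19 in Mirc11-/- and wild-type cells, and Oip5 of -0.06 and -0.08. The nearest upstream gene, Slc35f6, which lies 7048 bases away on the same strand and was chosen after its values were seen, rose as well. It had 33.4 ± 0.816 CPM in stimulated and 18.6 ± 0.807 CPM in unstimulated Mirc11-/- cells (SD, n = 3 each), and 31.1 ± 0.976 CPM in stimulated and 21.3 ± 1.31 CPM in unstimulated wild-type cells. Its log2 changes were 0.85 ± 0.08 (SE; adjusted p = 3.32e-06) and 0.55 ± 0.079 (adjusted p = 0.000171).

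**Figure D3:**
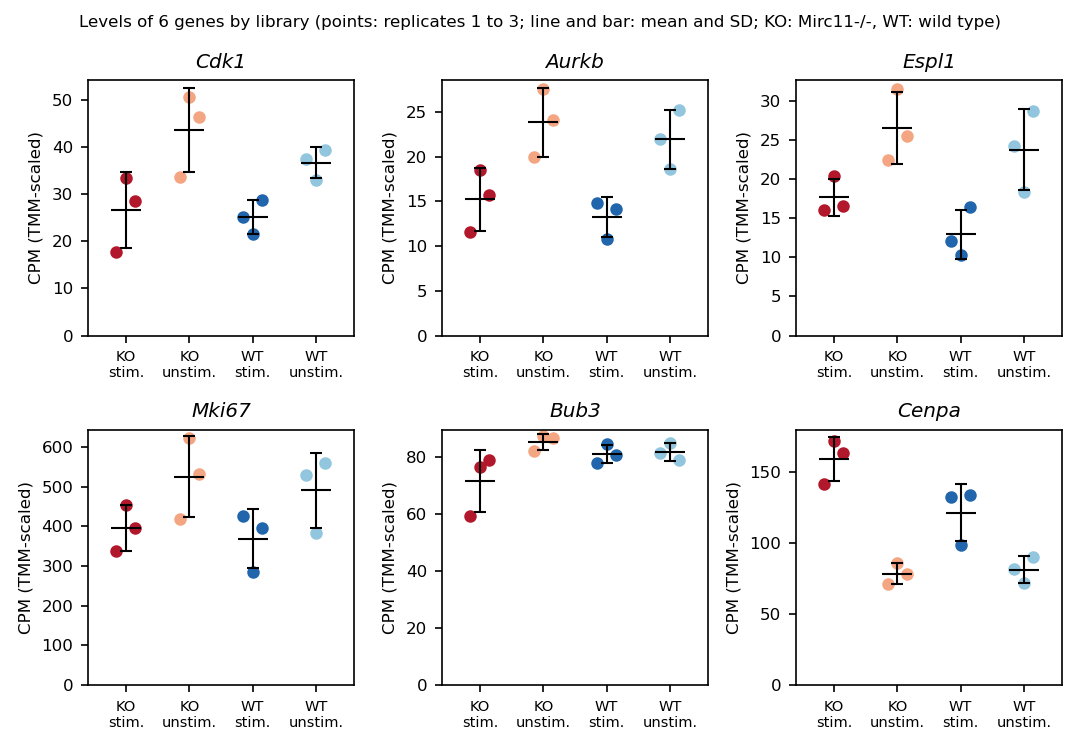
CPM of 6 members in each library (points), with the mean and SD of the 3 libraries per group; KO is Mirc11-/- and WT wild type, stimulated left of unstimulated. Cdk1, Aurkb and Espl1 are lower in stimulated libraries without overlap, with a near touch for Cdk1 in KO, Mki67 overlaps, Bub3 is nearly level in WT, and Cenpa is higher.

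Of the outer kinetochore members, Nuf2 and Spc25 of the NDC80 complex fell in Mirc11-/- cells, by 0.68 and 0.58 on the log2 scale (adjusted p = 0.0329 and 0.0363). In wild-type cells their log2 changes were -0.58 and -0.58 (adjusted p = 0.0788 and 0.0503). Ndc80, the subunit that gives the complex its name, had log2 changes of 0.17 (adjusted p = 0.46) and -0.08 (adjusted p = 0.771). It had 12.4, 19.1 and 17.9 CPM in stimulated and 12.2, 17.7 and 14.2 CPM in unstimulated Mirc11-/- replicates, and these groups overlapped. The motor Cenpe and the large coiled-coil protein Cenpf did not pass, at -0.36 and -0.11 in Mirc11-/- cells and -0.44 and -0.20 in wild-type cells.

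Among the genes that start anaphase, Espl1 fell in both genotypes. It encodes separase, the protease that cuts cohesin to release sister chromatids. Its levels were 16.0, 20.4 and 16.6 CPM in stimulated and 22.4, 31.5 and 25.5 CPM in unstimulated Mirc11-/- replicates, and 12.1, 10.3 and 16.4 CPM in stimulated and 24.2, 18.4 and 28.6 CPM in unstimulated wild-type replicates. Neither genotype showed an overlap. The log2 change was -0.58 ± 0.19 (SE; adjusted p = 0.0265) in Mirc11-/- cells and -0.88 ± 0.20 (adjusted p = 0.00437) in wild-type cells, the lowest of the 39 members. Ube2c, the ubiquitin-conjugating enzyme of the anaphase-promoting complex, fell in Mirc11-/- cells by 0.60 on the log2 scale (adjusted p = 0.0278), with -0.39 (adjusted p = 0.166) in wild-type cells. Cdc20, its activator, had -0.21 and -0.27 and did not pass.

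Of 6 spindle genes Tpx2, which activates Aurora A and nucleates microtubules, fell in both genotypes. It had 27.3, 45.7 and 36.7 CPM in stimulated and 44.8, 65.2 and 56.6 CPM in unstimulated Mirc11-/- replicates, and 35.7, 25.1 and 36.3 CPM in stimulated and 48.7, 41.4 and 53.5 CPM in unstimulated wild-type replicates. The Mirc11-/- groups overlapped, through stimulated replicate 2 and unstimulated replicate 1, and the wild-type groups did not. The log2 changes were -0.60 ± 0.20 (SE; adjusted p = 0.0277) and -0.57 ± 0.20 (adjusted p = 0.0479). The motors Kif11, Kif2c and Kif4 had -0.25, -0.08 and -0.34 in Mirc11-/- cells and -0.24, -0.13 and -0.26 in wild-type cells. The microtubule-binding proteins Hmmr and Nusap1 had -0.43 and 0.09 in Mirc11-/- cells and -0.38 and 0.03 in wild-type cells, and none of these passed.

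The cytokinesis genes were Kif20a, Kif23, Prc1, Anln and Ect2, which build the central spindle and the contractile ring, and 0 of 5 passed in either genotype. Their log2 changes were -0.37, -0.28, -0.14, -0.26 and -0.24 in Mirc11-/- cells and -0.34, -0.24, -0.23, -0.49 and -0.45 in wild-type cells, all negative.

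Top2a, the topoisomerase that untangles sister chromatids, fell in Mirc11-/- cells by 0.52 on the log2 scale (adjusted p = 0.0476), with -0.42 (adjusted p = 0.127) in wild-type cells. It had 154, 259 and 216 CPM in stimulated and 229, 376 and 297 CPM in unstimulated Mirc11-/- replicates, which overlap. Mki67, the proliferation marker Ki-67 that coats mitotic chromosomes, had 337, 454 and 396 CPM in stimulated and 420, 623 and 532 CPM in unstimulated Mirc11-/- replicates, and 425, 285 and 396 CPM in stimulated and 530, 383 and 560 CPM in unstimulated wild-type replicates. The groups overlapped in both genotypes, and the log2 changes of -0.41 and -0.41 did not pass (adjusted p = 0.097 and 0.116).

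Genes acting earlier in the cycle and other genes of the same machinery were set beside the members. In the main fit 22.1% of all tested genes were called lower in Mirc11-/- cells and 15.7% in wild-type cells. Of 30 genes of the G1/S transition and DNA replication, 29 fell in Mirc11-/- cells and 28 in wild-type cells, with none higher and median log2 changes of -0.97 and -0.83. They were led by the licensing factors Mcm3, at -1.54 and -1.29, Mcm2, at -1.52 and -1.34, Cdc6, at -1.85 and -1.57, and Mcm4, at -1.27 and -1.02. These medians lay further from 0 than those of the mitosis and G2/M members. The difference between the lists was not tested, and the lists were chosen with earlier results of these data known. With the vomeronasal covariate 6 and 22 of the 30 were called lower, where 581 and 2325 genes were called lower in the whole table.

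**Figure D4:**
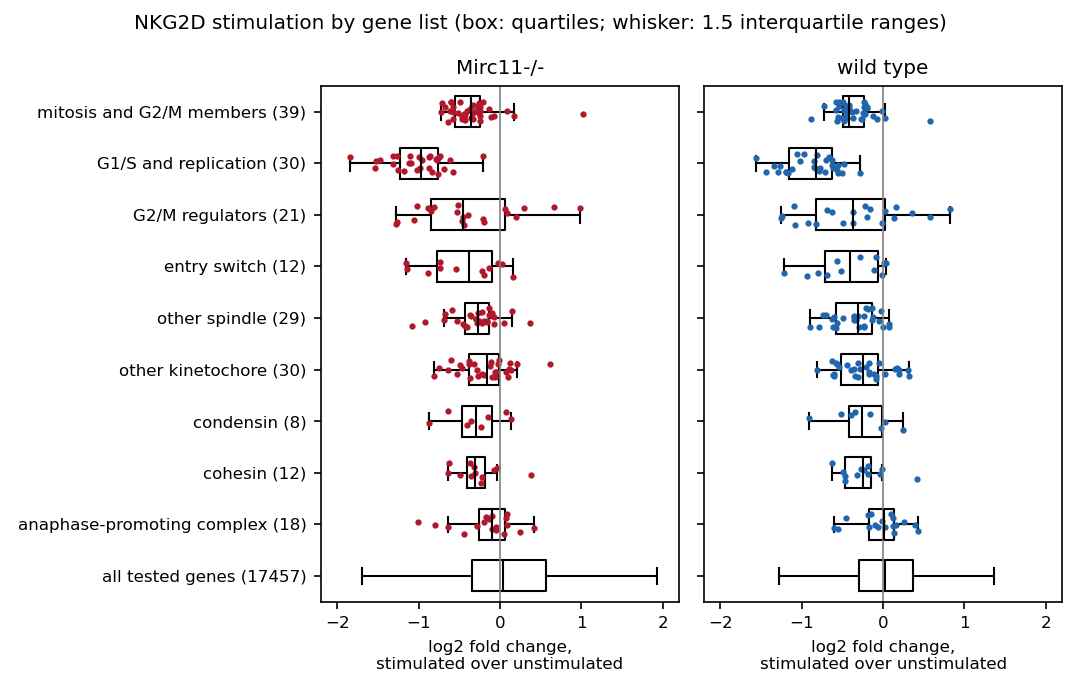
Log2 fold change on NKG2D stimulation (x axis) for the mitosis and G2/M members, 8 comparison lists and all 17457 tested genes, in Mirc11-/- cells (left) and wild-type cells (right); points are genes, boxes quartiles and whiskers 1.5 interquartile ranges. The G1/S and replication genes lie furthest to the left, with medians of -0.97 and -0.83, and the members lie between them and the all-gene median near 0.

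The other 130 G2/M pathway genes, in 7 lists, had median log2 changes of -0.23 in both genotypes. Of these 130, 45 were lower and 6 higher in Mirc11-/- cells, and 43 lower and 5 higher in wild-type cells. Among all tested genes 22.1% were called lower and 23.5% higher in Mirc11-/- cells, and 15.7% and 16.1% in wild-type cells. Of 21 regulators of the G2/M programme 12 fell and 3 rose in Mirc11-/- cells, and 11 fell and 3 rose in wild-type cells. Tfdp1, the DNA-binding partner of E2F proteins, fell by 1.27 and 1.08 on the log2 scale, while its relative Tfdp2 rose by 0.98 and 0.82. E2f4 fell by 0.82 and 0.50, and E2f3 by 0.88 and 0.63. Mybl2, which encodes B-Myb, fell by 1.27 and 1.26, and Foxm1 had log2 changes of -0.52 and -0.69. Among 12 genes of the switch into mitosis 6 fell in each genotype, including the phosphatase Cdc25a at -1.15 and -0.94, the checkpoint kinase Chek1 at -1.16 and -1.22, and the Cdk1 inhibitor kinase Pkmyt1 at -0.88 and -0.80.

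Structural genes were listed apart. Of 8 condensin subunits 3 fell in each genotype, namely Ncapg2 (-0.87 and -0.92), Smc2 (-0.64 and -0.52) and Ncapd3 (-0.36 and -0.39). Of 12 cohesin genes 8 fell and 1 rose in Mirc11-/- cells, and 4 fell and 1 rose in wild-type cells. The cohesin regulator Pds5a was at -0.50 and -0.47, and Stag2, a core subunit, rose by 0.38 and 0.41 on the log2 scale. Of 18 genes of the anaphase-promoting complex and its regulators 5 fell and 1 rose in Mirc11-/- cells, and 3 fell and 1 rose in wild-type cells. The subunit Anapc15 was at -1.01 and -0.56, and Anapc7 rose by 0.41 and 0.43 on the log2 scale. Of 30 further kinetochore genes 4 fell and 1 rose, and 7 fell and 0 rose, with Cenpq at -0.61 and -0.57. Of 29 further spindle and cytokinesis genes 7 and 9 fell and none rose, with the augmin subunit Haus6 at -0.69 and -0.70. For comparison, 22.1% of all tested genes were called lower and 23.5% higher in Mirc11-/- cells, and 15.7% and 16.1% in wild-type cells. The counts of these lists were not tested against those shares.

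Whether the loss of Mirc11 changed the response of these genes to NKG2D was tested as the difference between the responses, Mirc11-/- minus wild type. By edgeR's quasi-likelihood test 0 of the 39 members passed, where 2 of all tested genes did, or 0.0115%. At an unadjusted p of 0.05 the count was 1, Cenpa, where 1005 of the 17457 tested genes were higher and 853 lower. DESeq2 and limma voom also called 0 members at the adjusted p. The median difference was -0.01 log2, and the 95% interval of a member reached 0.63 log2 to each side at the median. For Cenpa the difference was 0.44 log2 (95% interval 0.05 to 0.83; adjusted p = 0.445), and it was positive under all 23 alternatives, from 0.31 to 0.60. The intervals of the other 38 members held 0, which does not show that the genotypes respond alike. The responses come from separate control libraries, unstimulated Mirc11-/- and unstimulated wild type.

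Levels were then compared between genotypes at each treatment. In unstimulated cells 0 of the 39 members passed, with 0 at an unadjusted p of 0.05 in edgeR and 0 called by DESeq2 and limma voom. Of all genes 0.309% were called higher and 0.796% lower at the adjusted p. At the unadjusted p 753 of the 17457 tested genes were higher and 854 lower. In stimulated cells 0 passed as well. At an unadjusted p of 0.05 there were 3 members, Incenp, Cenpa and Espl1, all higher. At that unadjusted p 2549 of the 17457 tested genes were higher and 2708 lower. At the adjusted p 3.89% of all genes were called higher and 5.13% lower in stimulated cells. DESeq2 called 1 member there, Cenpa, at 0.38 log2 (adjusted p = 0.0425; edgeR 0.39 ± 0.13 SE, adjusted p = 0.0661). limma voom called 0, and in the whole table DESeq2 called 2366 and limma voom 1611 genes. Over the 23 alternatives for this comparison the adjusted p of Cenpa ran from 0.0425, by DESeq2, to 0.884, with the vomeronasal covariate.

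Most estimates were positive, though no member passed in the main fit. Because the members move as one across libraries, these signs are not 39 separate observations. In unstimulated cells 38 of 39 were positive, with a median of 0.20 log2 and a range from -0.05 for Cenpa to 0.30 for Ccnb2, compared with 51.9% of all genes positive. In stimulated cells 38 of 39 were positive, with a median of 0.18 log2 and a range from -0.18 for Bub3 to 0.47 for Cdc25c, compared with 52.4% of all genes. Only Incenp and Cenpa had all 3 stimulated Mirc11-/- libraries above all 3 stimulated wild-type libraries, which is 5.13% of members and 15.8% of all genes. No member had this in unstimulated cells, against 8.87% of all genes. The medians ran from 0.05 to 0.31 log2 in unstimulated and from 0.03 to 0.37 log2 in stimulated cells over the alternatives. Among the other 130 pathway genes 0 passed in unstimulated cells. In stimulated cells the kinetochore gene Cenpi and the kinesins Kif18a and Kifc1 were higher in Mirc11-/- cells, by 0.55, 0.51 and 0.56 log2, and the subunit Anapc4 was lower, at -0.32 log2. None of the further kinetochore and spindle genes was called higher without stimulated wild-type replicate 2 or 3, with only the compared groups fitted or with the vomeronasal covariate. Genes called higher in the whole table then numbered 77, 102, 58 and 12, against 679. The kinetochore call was also lost without stimulated Mirc11-/- replicate 1 or 2, unstimulated Mirc11-/- replicate 3 or unstimulated wild-type replicate 1 and with no filter. Both kinesin calls were lost without stimulated Mirc11-/- replicate 3. Only 1 further spindle gene was called higher with no filter, with a non-robust fit or by limma voom. The same held without unstimulated Mirc11-/- replicate 1, 2 or 3, stimulated Mirc11-/- replicate 2, unstimulated wild-type replicate 1 or stimulated wild-type replicate 1.

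Matches to the microRNAs of the deleted cluster were also counted in the members. A 7-base match to the seed in the annotated 3′ untranslated region was found for miR-23a in 8 of the 39 members, for miR-27a in 5 and for miR-24 in 7. Over 12927 genes the shares were 17.9%, 19.7% and 21.3%. Mad2l1 held a match to each of the 3, and Cdk1 held matches to miR-27a and miR-24. The median log2 difference between unstimulated Mirc11-/- and wild-type cells was 0.18 for members with a miR-23a match and 0.20 for those without. It was 0.21 and 0.17 for miR-27a, and 0.21 and 0.19 for miR-24. In stimulated cells the medians with and without a match were 0.18 and 0.19 for miR-23a, 0.09 and 0.20 for miR-27a, and 0.13 and 0.20 for miR-24. The differences between these medians were not tested, and a match describes letters and not a bound site.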

How the data were processed

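RNA sequencing of 12 libraries in 4 groups of 3 was analysed from the deposited gene table. The tools named in the submitters' processing notes are RSEM 1.3.0, Bowtie2 2.2.8, Trim Galore 0.4.1 and bcl2fastq, with the build GRCm38; the deposited values are RSEM expected counts, whole numbers per gene, not scaled between libraries. The annotation release and strand setting are not given in the sources used here. Genes were filtered with filterByExpr, scaled by TMM and fitted with edgeR 4.0.16 (robust quasi-likelihood) in R 4.3.3, with 1 mean per group over all 12 libraries; p-values are two-sided and Benjamini-Hochberg adjusted over 17457 genes. DESeq2 1.42.0, limma voom (limma 3.58.1), other scalings and filters, replicate blocks, leaving out each library and a vomeronasal covariate were alternatives. The fit was tested on simulated data. The 39 members and all lists were chosen with earlier results of these data known. All members are named, and up to 4 genes per list by smallest p; Foxm1, Mybl2, Hjurp, Oip5, the pathway genes called between genotypes and Slc35f6 were named after their values were seen. Coordinates and 3′ untranslated regions are from GENCODE vM21 (GRCm38). Same-numbered libraries were not taken as paired.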

Additional observations from a re-analysis of the deposited data

How the results depend on the processing

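The counts of members called were 13 for stimulation in Mirc11-/- cells, 7 for stimulation in wild-type cells and 0 for the other comparisons. DESeq2's Wald test called 11 in wild-type cells, and 1 between stimulated genotypes, where it called 5593 and 2366 genes in the whole table. Fitting only the compared groups gave 8 and 16 for the stimulation comparisons in Mirc11-/- and wild-type cells, where genes called lower in the whole table numbered 3142 and 3031, against 3852 and 2745. Leaving out stimulated Mirc11-/- replicate 1 and unstimulated wild-type replicate 2 together, chosen after the data were seen, gave 5 and 18 (3907 and 3269 genes lower). Both libraries were the lowest of their groups for 38 members, so the direction of these shifts follows from the choice. The vomeronasal covariate gave 0 and 1 (581 and 2325 genes lower), but its level separates stimulated from unstimulated libraries, so it takes up part of the comparison. With that covariate Bub3 reversed to 0.244 log2 in Mirc11-/- cells (adjusted p 0.501). The cause of the other shifts was not tested.

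With 1 library left out the counts ran from 3 to 21 in Mirc11-/- cells. They were 3 without unstimulated replicate 2, 6 without unstimulated replicate 3, 5 without stimulated replicate 1, 21 without stimulated replicate 2 and 8 without stimulated replicate 3. Genes called lower in the whole table then numbered 3472, 3272, 3761, 3857 and 3625, in the same order, against 3852. In wild-type cells the member counts ran from 4 to 14: 4 without unstimulated replicate 1 or 3 or stimulated replicate 1 or 2, 11 without unstimulated replicate 2, and 13 and 14 without unstimulated and stimulated Mirc11-/- replicate 1. Genes called lower in the whole table numbered 2079, 2089, 1921, 2384, 2438, 2709 and 3498, in the same order, against 2745. All other comparisons stayed at 0 members with 1 library left out.

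Same-numbered stimulated and unstimulated libraries of a genotype did not correlate consistently over the tested genes (r from -0.065 to 0.226). The numbers were therefore not used as pairs in the main fit. Between stimulated and unstimulated libraries each wild-type library correlated best with its own number, but not each Mirc11-/- library, a hint from the data and not the design. A replicate block across groups gave 13 and 8 calls (3961 and 2815 genes lower in the whole table). A replicate block within genotype gave 28 and 30 (4165 and 3010 genes lower). Over all values, 6567 kept their side and direction, 102 lost and 107 gained a call, 134 counts or levels shifted and 1 reversed.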
